A study of Mus musculus with 4 samples.

Results

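The MHC class II-rich spots of mouse dorsal skin were the 256 spots, of 6411 kept, in which 4 genes of antigen presentation by MHC class II were highest: Cd74, H2-Aa, H2-Ab1 and H2-Eb1. Each spot was scored by the mean over these genes of the natural log of 1 plus the UMIs (unique molecular identifiers, counts of captured RNA molecules) per 10000 UMIs of the spot, and the top 4% of the spots of each slice were taken, which gave 66, 70, 62 and 58 members in slices 1 to 4. The other 6155 kept spots served as the comparison. The assay was Visium, a slide on which barcoded spots of known position capture the RNA of a section laid over them. Each spot covers a patch of tissue that may include cells of more than one type. All 4 slices carried frozen 10 μm sections of P38 skin, per the labels from the same 3 Krox20-CreERT; R26-tdTomato mice, given 4-hydroxytamoxifen at P2. In these mice CreERT sits behind a P2A linker at the Krox20 locus, so that the reporter marks Krox20-expressing cells and their descendants. There was no untreated group, no other genotype and no other age, and the slices are technical replicates: SDs and p-values describe the spread between slices and not between mice. The authors set aside a distorted section, but which deposited spots it would cover is not given, and all were used here.

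MHC class II molecules are pairs of an alpha and a beta chain that show peptides from engulfed proteins to CD4 T cells. The invariant chain, Cd74, guides the pair through the cell and fills its groove until cathepsin S (Ctss) trims it and H2-DM exchanges the rest for a peptide, while Ciita switches the genes on together with factors bound at the X and Y boxes of their promoters. In skin, high class II levels are known for Langerhans cells of the epidermis, for dendritic cells of the dermis and for part of the macrophages.

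Promoters of class II genes are shown, for 2 of the 4 score genes and for the H2-DM beta chains, because class II genes are known for these boxes. In the 130 bases before the RefSeq start (GRCm38.p6, both strands searched), capitals mark the letters GATTGG of the Y box and the letters AACNNATGATG of the X box, motifs that do not overlap each other. The X box letters are those that 4 class II promoters share, settled on after these had been read, so their matches here are a description. H2-Aa lies at chr17:34287824-34287953 on the minus strand and holds a Y box at -49, and H2-Eb1 lies at chr17:34305737-34305866 on the plus strand and holds an X box at -89, a Y box at -60 and an inverted Y box at -35.
H2-Aa: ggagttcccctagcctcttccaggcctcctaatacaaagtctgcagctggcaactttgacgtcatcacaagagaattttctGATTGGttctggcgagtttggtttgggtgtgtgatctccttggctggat
H2-Eb1: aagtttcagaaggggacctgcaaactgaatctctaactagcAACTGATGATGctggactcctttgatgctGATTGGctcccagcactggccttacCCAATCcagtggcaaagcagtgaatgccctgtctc
For the H2-DM beta chain genes only the sites are shown, 25 bases around the X box and 26 around the Y box. In H2-DMb1 these boxes start at -92 and -62, and in H2-DMb2 at -121 and -91.
H2-DMb1 X box: acctagtAACTGATGATGctaggct
H2-DMb2 X box: acctattAACCGATGATGctaggct
H2-DMb1 Y box: ttcactcagtGATTGGtctgacctgc
H2-DMb2 Y box: gtcacttagtGATTGGactgacttaa
Of 32851 RefSeq promoter entries, 10.1% held the Y box letters in such a window, 0.0731% the X box letters and 0.0183% both. The window of Ctss held neither, those of H2-Aa, H2-Oa and H2-Eb2 the Y box letters but not the X box letters, and that of H2-Ob both. H2-DMa had 2 windows, ending at chr17:34122831 and chr17:34125517 within the gene's coordinates given below, and no match was found in them. A match elsewhere in H2-DMa was not looked for, so these windows do not show that the gene lacks the boxes.

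The slices held 19393026 to 26910422 UMIs, and 9 of the deposited spots fell short of 250 genes and were dropped. Members were shallower than the other spots in every slice, with median UMIs of 11592.5, 8525, 8937.5 and 10227 against 14830, 12230, 12116 and 11839.5. Levels are therefore given as CPM, counts scaled to the total UMIs of the same spots. Mitochondrial genes took 3.75 to 5.24% of the UMIs of members and 3.43 to 5.22% of those of other spots, whereas ribosomal protein genes took 15.3 to 17.1% against 18.9 to 22.2%. In the spots matched for layer and depth, described below, ribosomal protein genes took 15.5 to 17.1%. A barcode marks a position on the array, and of 747 barcodes kept in all 4 slices none was a member in all of them.

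Members were chosen by the measured levels of the 4 score genes, so those are given as a description. Cd74 was at 1480, 1888, 1175 and 1456 CPM in the members of slices 1 to 4 and at 109, 99.5, 82.8 and 97.5 CPM in the other spots. Means over the slices were 1500 ± 293 (SD, n = 4) for Cd74, 766 ± 128 for H2-Aa, the alpha chain of the I-A molecule, 1137 ± 159 for H2-Ab1, its beta chain, and 661 ± 102 for H2-Eb1, the beta chain of I-E. These means were 14.6 to 17.1 times those of the other spots. Scores of members ran from 1.93 to 3.39, from 1.83 to 4.08, from 1.65 to 3.18 and from 1.75 to 3.51, against medians of 0.24, 0.24, 0.20 and 0.25 in the other spots. The border fell within a continuous range: in slice 1 the lowest member scored 1.93 with 7, 5, 6 and 2 UMIs of the 4 genes among 7863, and the highest spot left out scored 1.93 with 14, 6, 3 and 4 among 9846. In slices 2 to 4 the highest spots left out scored 1.82, 1.64 and 1.73.

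Members lay in or near the epidermis. Spots were assigned to the layer whose marker list had the highest z score, from 10 lists without immune genes. The epidermis list took 92 members, 36.2 ± 5.04% of them (SD, n = 4) against 7.28 ± 0.983% of the other spots, and the dermis list 72, 28.0 ± 2.83% against 4.02 ± 0.610%. The upper follicle list took 46 (18.0 ± 5.42% against 6.97 ± 0.451%) and the sebaceous gland list 35 (13.5 ± 5.76% against 4.98 ± 0.329%).

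All of these shares were higher among members in 4 of 4 slices, with log2 ratios of 2.31 for epidermis, 2.81 for dermis, 1.31 for upper follicle and 1.34 for sebaceous gland. An exact two-sided sign-flip permutation test gave p = 0.125 for each, the smallest that 4 slices allow. The lists together held 245 members, or 95.6 ± 1.78%, and 1430 other spots, or 23.2 ± 0.780%. Only 4 members fell to the outer root sheath list, 2 each to adipose and hair shaft, and 1 each to inner root sheath, hair matrix and muscle.

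Read the other way, 17.0% of epidermis spots (95% Wilson interval 14.0 to 20.4, counting error only) and 22.6% of dermis spots (18.4 to 27.6) were members, against 9.70% of upper follicle, 10.3% of sebaceous gland and 0.115% of muscle spots. The median score over all spots of a layer followed a slightly different order, with 1.34 in epidermis, 1.05 in dermis, 0.85 in sebaceous gland, 0.74 in upper follicle and 0.26 in muscle. Assignments were not sharp: 58 of the 92 epidermis members had dermis as their second list, 33 of the 72 dermis members had epidermis, and 59 of the 256 members led by under 0.25 z, as did 1244 of the other spots.

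**Figure D1:**
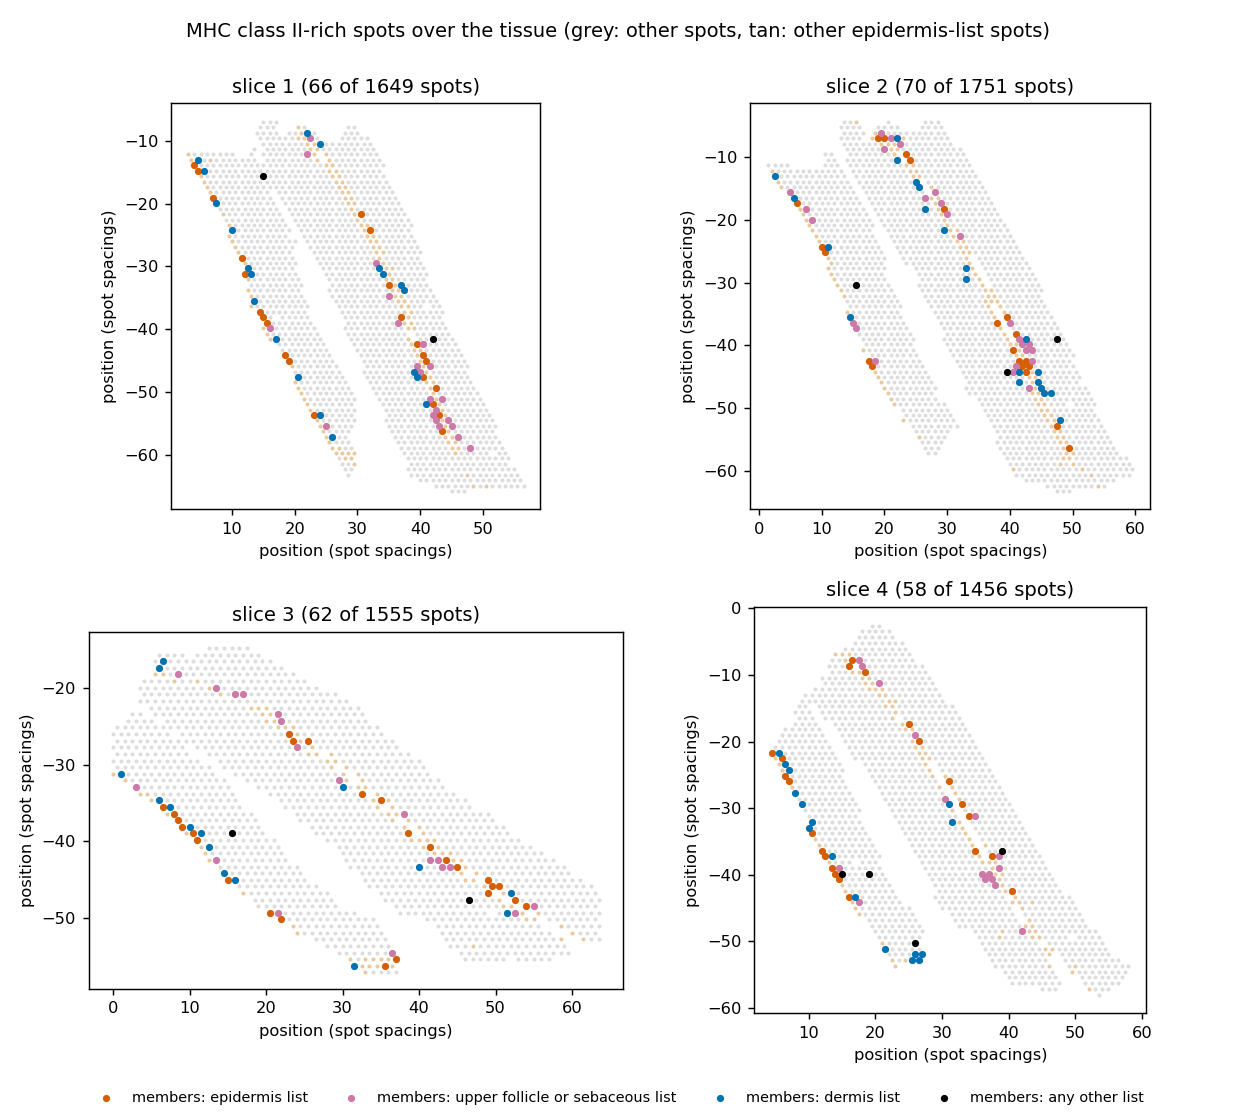
Position of the members in the 4 slices, with both axes in spot spacings. Coloured points are members by layer list, tan points other epidermis-list spots and grey points the remaining spots; members follow the epidermis-list spots along the tissue edges.

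**Figure D2:**
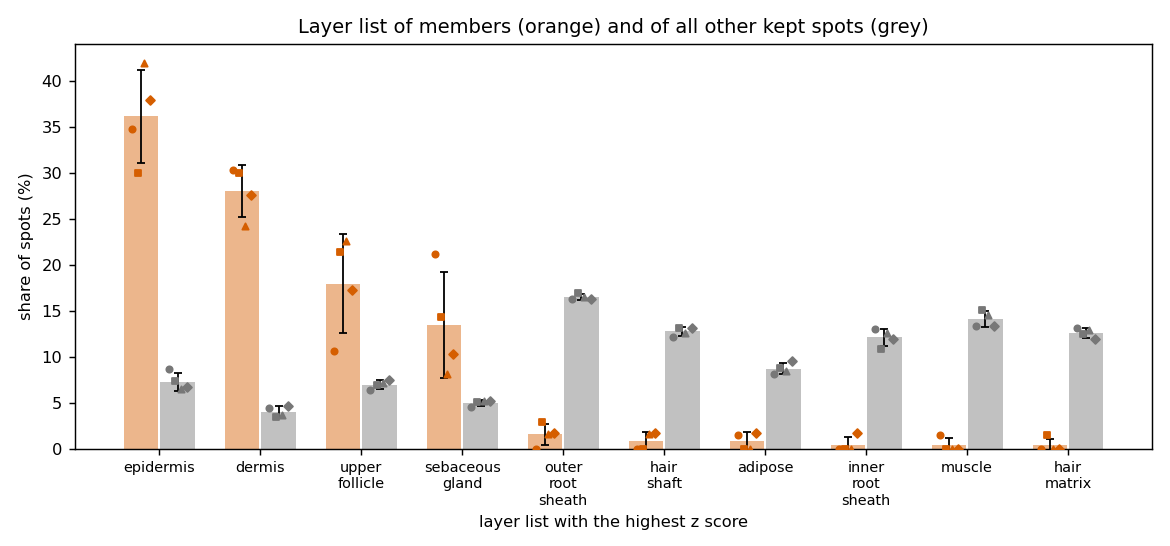
Share of members (orange) and of all other kept spots (grey) in each layer list, in percent. Bars are means, error bars SDs and points the 4 slices; in the epidermis and dermis lists the lowest member slice, at 30.0% and 24.2%, lies above every slice of the other spots.

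On the spot grid 92 members were epidermis spots themselves, 128 touched one and 23 were 2 steps away, while the remaining 13 lay at 3 to 9 steps. Within 1 step lay 93.9, 78.6, 90.3 and 81.0% of the members of slices 1 to 4, against 18.3 ± 0.932% of the other spots. The median distance was 1 step for members and 4 for the others in each slice. Position was described without a test, since the layer lists place the epidermis.

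Members were also clustered. Of the spots next to a member 24.3 ± 3.38% were members, against 2.97 ± 0.206% of those next to another spot. These shares follow the layers as well. The epidermis, dermis, upper follicle and sebaceous lists held 95.6% of members but 23.2% of the other spots. The 256 members formed 124 patches, of which 70 were single spots and 11 held 5 or more, and the largest held 9, 10, 10 and 7 spots in slices 1 to 4. When each slice was cut into 3 strips of position, every strip held members, as 1.65 to 9.29% of its spots.

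Levels were then followed by grid steps from the members. Those of the score genes are a description, since the rule set members above their neighbours: they summed to 4065 ± 661 CPM in members, 923 ± 180 in the 745 spots 1 step away, 488 ± 59.1 at 2 steps and 141 at 5 or more. H2-DMa, H2-DMb1, H2-DMb2 and Ctss, which the score did not use, went from 260 ± 36.2 through 79.9 ± 11.1 and 45.0 ± 3.75 to 18.0 ± 1.83 CPM over the same distances.

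Leukocyte genes, 15 in all, went from 761 ± 117 CPM in members through 251 ± 32.9 at 1 step to 69.8 ± 4.03 at 5 or more. Class I genes declined more slowly, from 6425 ± 263 CPM in members to 5217 ± 242 at 1 step, 4082 ± 285 at 2 and 1790 ± 171 at 5 or more. These sums follow the layers as well as the distance, because most members lie near the surface.

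**Figure D3:**
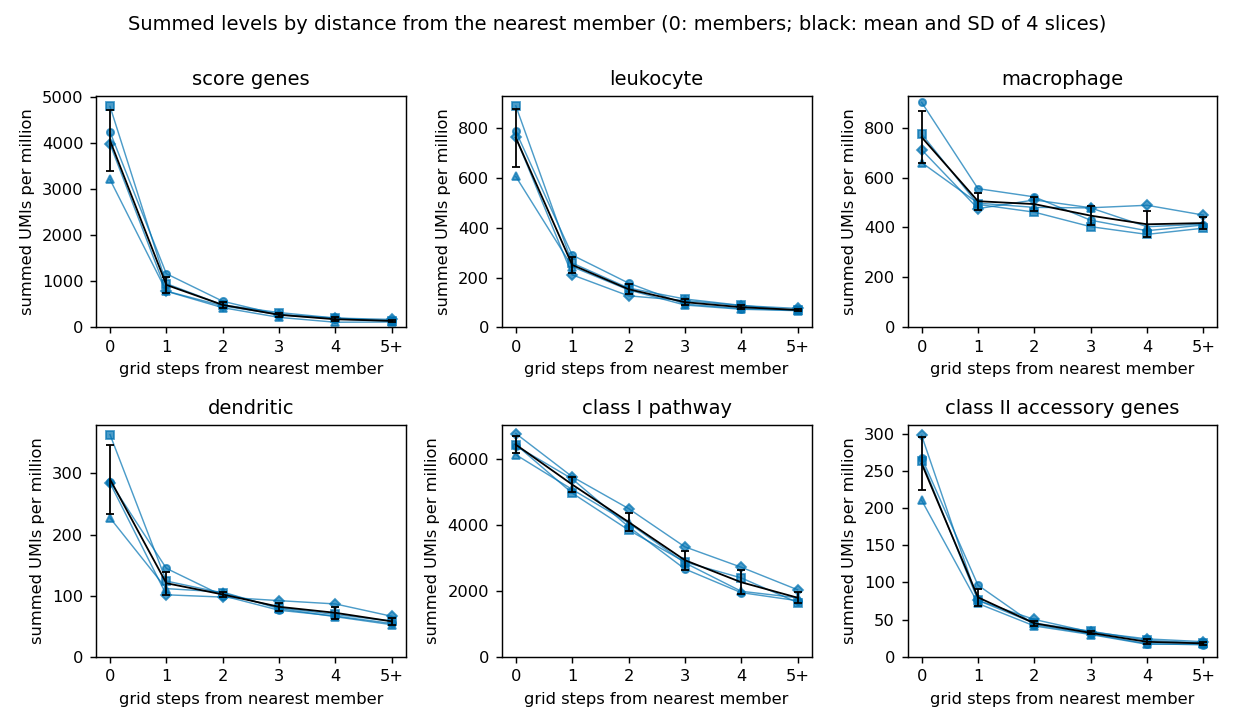
Summed levels of 6 gene lists in CPM by grid steps from the nearest member, where 0 stands for the members. Thin lines are the 4 slices and the black line their mean with its SD; all lists are highest in the members, and the class I list falls more slowly than the class II accessory genes.

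For the tests, UMIs were summed over members and over comparison spots in each slice, and genes were called at an adjusted p under 0.05 (edgeR, slice as a block). Other genes of a member were counted in the same spot as the score genes, so they are not drawn independently of the rule, and in a spot fewer cells of a type cannot be told apart from less RNA per cell. Against all other spots 2772 of 13774 genes were higher (20.1%) and 2748 lower (20%), with the 4 score genes left out, and for 37.5% of genes the 4 sums of members did not overlap those of the other spots. Because members lie in particular layers, each was also set against the 5 spots of its slice and layer list nearest in UMIs. Against these matched spots 397 of 10676 genes were higher (3.72%) and 282 lower (2.64%), and for 7.76% the sums did not overlap. The matched spots numbered 968, since 165 dermis spots had to serve 360 times, some up to 8 times. Layer matching was also incomplete: the dermis list summed to 43273 to 56875 CPM in members and 27086 to 36312 in matched spots, without overlap, and the epidermis list to 15930 to 21183 against 14575 to 17842. Other lists were lower in members without overlap. The outer root sheath list summed to 5416 to 6625 against 6844 to 8442, and the adipose list to 635 to 928 against 1031 to 1232. Against the spots adjacent to members, 469 of 9536 genes were higher (4.92%) and 350 lower (3.67%).

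The rest of the class II machinery was high in members. Of 11 further genes of this list, 9 could be tested against all other spots and 8 were higher, where 20.1% of all genes were, and 5 of 7 were higher than in matched spots, where 3.72% were. The median log2 fold of the list was 3.07 against all other spots, beside -0.06 over all genes, and 1.71 against matched spots, beside -0.01.

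H2-DMa (chr17:34119541-34139101, GRCm38, plus strand), the alpha chain of the H2-DM peptide editor, was at 85.4, 74.4, 47.5 and 72.7 CPM in members, 20.9, 27.6, 12.2 and 15.4 in matched spots and 7.28, 8.04, 6.20 and 7.30 in all others. The 3 groups did not overlap in any slice. The log2 fold was 3.25 ± 0.16 (SE; edgeR adjusted p = 6.2e-21) against all others and 1.90 ± 0.18 (4.9e-11) against matched spots. Its partner H2-DMb1 was at 79.2, 85.7, 83.1 and 118 CPM in members and 24.5 to 30.8 in matched spots, with log2 folds of 3.07 ± 0.14 and 1.71 ± 0.15. H2-DMb2, whose sequence is close to that of H2-DMb1 so that reads may be split between them, followed with 3.78 ± 0.31 and 1.80 ± 0.30.

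Ctss, the protease that trims the invariant chain, stood at 82.9, 85.7, 56.0 and 80.8 CPM in members, 20.4, 20.6, 20.4 and 24.2 in matched spots and 7.60 to 9.64 in the others. Its lowest member slice exceeded every comparison slice, with log2 folds of 3.10 ± 0.15 and 1.84 ± 0.16 (edgeR adjusted p = 2.0e-21 and 1.2e-11). Ifi30, which reduces disulfide bonds of antigens, differed less, with 1.59 ± 0.11 and 0.52 ± 0.11.

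H2-Oa, a chain of the H2-DM antagonist H2-O, rested on 11 UMIs in members. Ciita was at 8.80, 6.47, 6.78 and 19.4 CPM in members against 0.962 to 1.97 in all others, a log2 fold of 2.95 ± 0.40 (adjusted p = 6.4e-08), while against matched spots it was 1.05 ± 0.39 and not called (adjusted p = 0.12). Of the 8 transcription factor genes of class II, Ciita and Rfx5 were higher than in all other spots, a share near the 20.1% of all genes, and none was called against matched spots. The median log2 fold of these 8 was -0.05 against all other spots, beside -0.06 over all genes.

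**Figure D4:**
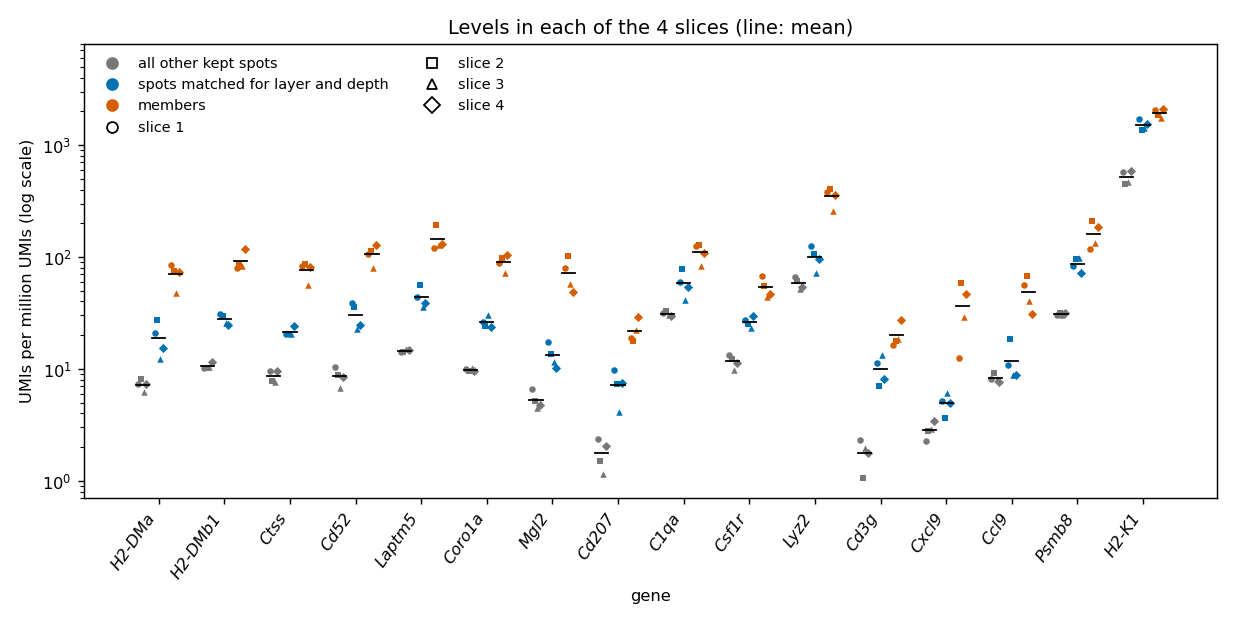
CPM of 16 genes on a log axis in all other kept spots (grey), matched spots (blue) and members (orange). Symbols are the 4 slices and lines the means; for H2-DMa, Ctss, Laptm5, Mgl2 and Lyz2 every member slice lies above every matched and every other slice, whereas for H2-K1 the step from matched spots to members is small.

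General leukocyte genes, set against the label of immune spots, were checked first: all 15 were higher than in all other spots (20.1% of all genes) and all 15 higher than in matched spots (3.72%). Their sum was 606 to 889 CPM in members, 205 to 277 in matched spots and 93.1 to 106 in the others. Ptprc, the pan-leukocyte CD45 phosphatase, was at 23.9, 25.9, 15.3 and 12.9 CPM in members against 1.36 to 6.21 in matched spots (log2 fold 2.09 ± 0.34). Laptm5, a lysosomal protein of blood cells, was at 121, 194, 129 and 131 CPM against 43.7, 56.2, 35.4 and 38.6 (1.71 ± 0.12, adjusted p = 2.2e-15).

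Log2 folds over matched spots were 1.85 ± 0.14 for the signalling adaptor Tyrobp, 1.80 ± 0.14 for the surface peptide gene Cd52, 1.79 ± 0.15 for the actin regulator Coro1a and 1.82 ± 0.22 for Aif1 of myeloid cells. The Fc receptor genes Fcer1g and Fcgr2b gave 1.65 ± 0.17 and 1.37 ± 0.20, and Cd53 1.79 ± 0.31. The smallest of these, Rac2 at 0.98 ± 0.30, lost its call without slice 1, 2 or 4, with adjusted p up to 0.26. Against all other spots the folds of these 10 genes were 2.11 to 3.58.

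Among dendritic cell genes, 10 of 11 tested were higher than in all other spots (20.1% of all genes) and 6 of 7 higher than in matched spots (3.72%). Mgl2 (chr11:70130329-70137550, plus strand), a C-type lectin of dermal dendritic cells and macrophages, was at 79.2, 102, 57.7 and 48.5 CPM in members, at 17.3, 13.6, 11.6 and 10.1 in matched spots and at 4.47 to 6.59 in the others. Every member slice was above every comparison slice, and the log2 folds were 3.71 ± 0.18 and 2.42 ± 0.19 (edgeR adjusted p = 2.9e-21 and 1.4e-13). Cd209a, another lectin of this kind, was at 12.6, 21.0, 13.6 and 16.2 CPM against 1.31 to 4.66 in matched spots (2.26 ± 0.38).

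Naaa, a lysosomal amidase, gave 2.48 ± 0.18 and 1.33 ± 0.19, and Irf8, a transcription factor of these lineages, 2.92 ± 0.32 and 1.51 ± 0.33. Itgax, coding for CD11c, gave 3.71 ± 0.40 against all others, and its 1.31 ± 0.38 against matched spots lost the call without slice 1, 2 or 4 (adjusted p up to 0.13). Clec10a at 0.79 ± 0.22 did so without slice 2 or 4 (up to 0.19). Flt3, the receptor of the dendritic growth factor, was at 5.03, 6.47, 3.39 and 14.5 CPM against 0.192 to 0.799 in all others (3.62 ± 0.52), and was too low to be tested against matched spots.

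Of 6 genes of matured, migrating dendritic cells, 4 were higher than in all other spots (20.1% of all genes) and none of 4 was called against matched spots (3.72%). Ccr7, the receptor that guides them to lymph nodes, had 2 UMIs in all members. Fscn1 was at 69.1, 66.3, 67.8 and 42.0 CPM against 53.5, 52.1, 67.0 and 67.5, overlapping groups (log2 fold 0.02 ± 0.13, adjusted p = 0.94). Of a list of costimulatory and inhibitory genes, 3 of 4 tested were higher than in all other spots (20.1% of all genes). Among them were Havcr2 and Cd83 (4.24 ± 0.82 and 3.16 ± 0.47), the former on 1.26 to 5.09 CPM. Both were too low to be tested against matched spots, where the 1 gene of the list tested was not called. Cd80 had 0 UMIs in members.

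Cd207 (chr6:83671215-83677857, minus strand) codes for langerin, a lectin that Langerhans cells make. Its mean in members was 21.9 ± 5.10 CPM (SD, n = 4), lowest in slice 2 at 17.8 and highest in slice 4 at 29.1. It stood at 9.83, 7.32, 4.08 and 7.53 in matched spots and at 2.37, 1.49, 1.15 and 2.02 in all others. The groups did not overlap, and the log2 folds were 3.56 ± 0.31 (adjusted p = 4.4e-13) and 1.58 ± 0.30 (1.9e-04). Of the other genes of its list, Mfge8 was higher and Cd24a lower than in all other spots, and neither was called against matched spots. Epcam, which many epithelial cells also express, was higher than in all other spots (0.52 ± 0.07) but lower than in matched ones (fell by 0.33 ± 0.07), and against neighbouring spots its log2 fold was -0.38. Ly75 had UMIs in the members of slice 3 alone, at 3.39 CPM.

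Of 20 macrophage genes tested, 14 were higher (20.1% of all genes) and 2 lower (20%) than in all other spots, and 9 of 17 were higher than in matched spots (3.72%). The median log2 folds of the list were 1.68 and 0.86. C1qa, a chain of complement C1q that tissue macrophages make, was at 126, 128, 83.1 and 108 CPM in members, 60.0, 77.8, 41.5 and 53.3 in matched spots and 29.9 to 33.0 in the others. No slice of members overlapped the comparison spots, and log2 folds were 1.80 ± 0.11 and 0.95 ± 0.12 (adjusted p = 1.3e-17 and 4.3e-08).

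C1qb, C1qc and the receptor of the macrophage growth factor, Csf1r, gave 1.14 ± 0.14, 1.03 ± 0.17 and 1.03 ± 0.17 against matched spots. Mrc1, the mannose receptor of resident macrophages, gave 1.31 ± 0.19 and Adgre1, coding for F4/80, 1.16 ± 0.25. Pf4, at 0.86 ± 0.21, lost its call without slice 1 (adjusted p = 0.059). Retnla, a gene of alternatively activated macrophages, was at 118, 87.3, 91.6 and 87.3 CPM against 34.7 to 60.5 in matched spots (1.04 ± 0.13).

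Lyz2, the lysozyme of monocytes and macrophages, reached 382, 407, 256 and 357 CPM in members against 126, 106, 71.8 and 95.6 in matched spots and 51.8 to 66.4 in the others. All member slices lay above all comparison slices, with log2 folds of 2.54 ± 0.08 and 1.81 ± 0.08 (edgeR adjusted p = 4.5e-29 and 4.0e-21). Of the monocyte list 5 of 7 genes were higher than in all other spots (20.1% of all genes) and 3 of 3 higher than in matched ones (3.72%): Lyz2, the chemokine receptor Ccr2 (2.59 ± 0.25 and 1.38 ± 0.25) and Ms4a4c (4.00 ± 0.45 and 3.38 ± 0.57). Ly6c2, which marks classical monocytes, had too few UMIs in members to be tested, and Chil3 had none.

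Some mast cell proteases were higher too. Mcpt4 was at 39.0, 30.7, 56.0 and 27.5 CPM against 14.0 to 22.8 in matched spots and 6.68 to 9.59 in the others (2.18 ± 0.22 and 1.11 ± 0.21). Cma1 gave 1.65 ± 0.23 and 0.95 ± 0.23, the latter not called without slice 2 (adjusted p = 0.069). Of the mast cell list, 3 of 5 tested were higher (20.1% of all genes) and Kit, which melanocytes also express, was lower (20%) than in all other spots. Against matched spots 2 of 3 were higher (3.72%). The protease gene Cpa3 was higher than in all other spots but not called against matched ones. Tpsb2 was not called against all others, and Tpsab1 had 0 UMIs in members.

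All 10 T cell genes tested were higher than in all other spots (20.1% of all genes) and 3 of 9 higher than in matched spots (3.72%). The sum of all 14 genes of the list was 124 to 162 CPM in members, 58.9 to 85.6 in matched spots and 24.8 to 32.3 in the others. Cd3g, a chain of the T cell receptor complex, was at 16.3, 17.8, 18.7 and 27.5 CPM in members, 11.4, 6.99, 13.3 and 8.18 in matched spots and 1.06 to 2.34 in the others. Members were above both in each slice, with log2 folds of 3.42 ± 0.32 (adjusted p = 4.2e-12) and 1.00 ± 0.29 (0.021).

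The matched calls for T cell genes were not stable. Cd3g lost its call without slice 2 or 4 (adjusted p up to 0.27), Cd3d (1.37 ± 0.39) whichever slice was left out (up to 0.13) and Trbc1 (1.40 ± 0.42) without slice 2 or 3 (up to 0.51). Cd3e (0.92 ± 0.32, adjusted p = 0.085), Trbc2 (0.33 ± 0.21, 0.48) and the gamma delta receptor gene Trdc (1.02 ± 0.43, 0.19) were not called against matched spots.

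Lymphocytes of the B lineage left few UMIs: Cd79a and Ms4a1 were at 0 in members, and 3 of 8 genes of the list could be tested against all other spots. Ighm, the mu heavy chain, was at 28.9, 42.0, 30.5 and 40.4 CPM against 8.98 to 18.4 in matched spots (1.35 ± 0.24). Igkc varied widely, at 20.1, 77.6, 39.0 and 9.70 CPM, and was not called against matched spots (0.82 ± 0.37, adjusted p = 0.23). Retnlg, Cxcr2 and Ly6g of neutrophils had 0 UMIs in members. Of the 3 neutrophil genes tested against all other spots, Csf3r was higher (20.1% of all genes) and 2 were lower (20%). The lower ones were S100a8 and S100a9, which neutrophils and keratinocytes express, with log2 folds of -1.28 ± 0.11 and -1.06 ± 0.23. Neither was called against matched spots (edgeR adjusted p = 0.77 and 0.94), where Csf3r was not tested.

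Of 18 chemokine and cytokine genes tested, 14 were higher (20.1% of all genes) and 1 lower (20%) than in all other spots, and 7 of 15 were higher (3.72%) and 2 lower (2.64%) than in matched spots. Cxcl9, which draws T cells and is induced by interferon gamma, was at 12.6, 58.2, 28.8 and 46.9 CPM in members and at 5.17, 3.66, 6.12 and 4.91 in matched spots. Slice 1 was the lowest of the members and still above every comparison slice, with log2 folds of 3.58 ± 0.27 and 2.77 ± 0.31 (edgeR adjusted p = 4.2e-15 and 3.6e-09). Its relative Cxcl10 gave 3.47 ± 0.30 and 1.82 ± 0.29, with slice 2 the highest at 50.1 CPM.

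Ccl9, a chemokine of myeloid cells, was at 56.5, 67.9, 40.7 and 30.7 CPM against 8.84 to 18.6 in matched spots (2.07 ± 0.20), and Ccl8 at 460, 344, 248 and 218 against 237, 204, 135 and 92.0 (0.94 ± 0.08, adjusted p = 4.8e-12). For Ccl8 the groups overlapped, although members were higher in 4 of 4 slices. Cxcl16, at 0.65 ± 0.14, lost its call without slice 2 (adjusted p = 0.073). Ccl27a, a chemokine of keratinocytes, was at 674, 763, 762 and 680 CPM against 551 to 633 (0.24 ± 0.06, adjusted p = 0.0059).

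Cxcl14, which epithelia make, was the only chemokine that was lower in both comparisons, at 281, 322, 336 and 336 CPM in members, 392, 430, 454 and 484 in matched spots and 366 to 441 in the others. Members lay below both in every slice, without overlap, with log2 folds of -0.46 ± 0.07 against matched spots and -0.35 ± 0.07 against the others. Ccl2 and Ccl5 were called against all other spots (3.38 ± 0.52 and 2.94 ± 0.42). Against matched spots Ccl5 was not called (0.74 ± 0.44, adjusted p = 0.44) and Ccl2 was too low to be tested.

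Class I antigen presentation is shared by nearly all cells. Of 18 of its genes, 16 were higher than in all other spots (20.1% of all genes) and 9 higher than in matched spots (3.72%). B2m, the light chain of class I, was at 1621, 1628, 1620 and 1888 CPM in members, 1287, 1224, 1260 and 1456 in matched spots and 476 to 654 in the others. The log2 fold of 1.63 ± 0.06 against all others was thus 0.37 ± 0.04 against matched spots (adjusted p = 2.0e-08).

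The heavy chains H2-K1 and H2-D1 behaved alike, with 1.86 ± 0.06 and 1.55 ± 0.06 against all others and 0.35 ± 0.05 and 0.57 ± 0.06 against matched spots. Class I heavy chain genes are near-identical, so that reads may be split among them, and H2-Q7 (0.49 ± 0.10) lost its call without slice 3 (adjusted p = 0.051). Psmb8 and Psmb9, subunits of the immunoproteasome, gave 0.88 ± 0.11 and 0.92 ± 0.19. The peptide transporter gene Tap1 gave 0.44 ± 0.11 and lost its call without slice 2 or 3 (up to 0.14).

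Interferon-induced genes were higher in 15 of 20 tested against all other spots (20.1% of all genes) and in 9 of 19 against matched spots (3.72%). Gbp2, a guanylate-binding protein, was at 32.7, 40.4, 25.4 and 48.5 CPM against 18.0 to 19.4 in matched spots (0.97 ± 0.21, adjusted p = 9.9e-04), without overlap. Ifi27l2a gave 0.77 ± 0.12. The matched calls of Zbp1, Igtp, Iigp1, Ifi47 and Gbp3, at 0.76 to 1.34, were each lost without slice 1 and without slice 2, with adjusted p up to 0.25.

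Of the lysosome list 14 of 17 genes were higher than in all other spots (20.1% of all genes) and 7 than in matched spots (3.72%), while the cathepsin gene Ctsc was lower in the first comparison and Ctsd in the second. Among the higher genes were Hexa at 0.63 ± 0.12 and Cst3, the inhibitor of cysteine cathepsins, at 0.37 ± 0.05. Complement genes other than C1q were higher in 8 of 11 and 4 of 10 against the same shares, with the C1 inhibitor gene Serping1 at 0.38 ± 0.08.

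Markers of other cell types also differed between members and the rest. Lymphatic vessel genes were higher in 5 of 5 against all other spots (20.1% of all genes), with a sum of 184 to 377 CPM against 64.9 to 78.0, and in 1 of 4 against matched spots (3.72%), at 152 to 284. Ccl21a, the chemokine of lymphatic endothelium, was at 237, 200, 275 and 115 CPM against 209, 177, 119 and 95.9 in matched spots (0.46 ± 0.11), and lost its call without slice 3 (adjusted p = 0.33). Prox1, which defines these vessels, was at 1.62 to 8.48 CPM in members, and its call against all others was lost without slice 3 (adjusted p = 0.31). The part of these vessels in the results was not tested.

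Of the general endothelium genes 4 of 8 were higher than in all other spots (20.1% of all genes), among them Pecam1 (0.47 ± 0.17, not called without slice 2 or 3, adjusted p up to 0.52), and Cdh5 was not called (-0.14 ± 0.22, adjusted p = 0.65). Of 8 smooth muscle and pericyte genes, 3 were higher (20.1% of all genes) and Des lower (20%) than in all other spots. Their median log2 fold was 0.06, beside -0.06 over all genes. Against matched spots 2 of 8 were higher (3.72%). These 2, Acta2 and Myh11, were higher in both comparisons (0.69 ± 0.08 and 0.80 ± 0.14 against matched spots).

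Melanocyte genes were lower in 6 of 6 (20% of all genes), and Dct, a pigment enzyme, was at 69.1, 42.0, 33.9 and 33.9 CPM against 166 to 188 in all others (-1.96 ± 0.12) and 55.6 to 85.6 in matched spots (-0.62 ± 0.15, not called without slice 4, adjusted p = 0.099). Haemoglobin genes were lower in 4 of 4 against all others (20%) and in none of 4 against matched spots. Krox20, listed as Egr2, was at 45.2, 56.6, 50.9 and 53.3 CPM in members, 46.3, 70.5, 59.9 and 63.8 in matched spots and 29.7 to 38.6 in the others. It was higher than in all others by 0.60 ± 0.14 (adjusted p = 5.2e-04) and not called against matched spots (-0.21 ± 0.14, adjusted p = 0.53).

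Among genes with at least 20 CPM over all kept spots, the 10 highest log2 folds against all others were 2.74 to 2.84, and most belonged to cornifying keratinocytes: Lce1m, Lce1a1, Krt1, Krt77, Lor and 2310050C09Rik. Of these 6, Krt1, Krt77 and Lor belong to the epidermis list that set the layers for the matching. Against matched spots the log2 folds of the 6 were 0.18 to 0.29. Lce1m, Krt1, Krt77 and Lor were called there, and each lost its call without slice 2 and without slice 4, Lce1m and Lor also without slice 3, with adjusted p up to 0.50. The other 4 were S100a4, a calcium-binding protein of leukocytes and fibroblasts (2.83 ± 0.08 and 1.08 ± 0.08), Ndufa4l2 (2.81 and 0.53), Igfbp2 (2.77 and 0.86) and Cpz (2.76 and 0.75). The 10 lowest were mostly genes of striated muscle, from Myom2 (-4.50 ± 0.44) over Mb (-3.10 ± 0.17) to Jsrp1 (-2.72), and one of them, Mycn, is a growth regulator (-3.68 ± 0.38).

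The contrast was then fitted within the layers that held most members, a choice made after the data had been seen. Against the non-members of the same list, 391 of 7350 genes were higher in the 72 dermis members (5.32%) and 236 lower (3.21%). In the 92 epidermis members 85 were higher (1.16%) and 17 lower (0.231%), and in the 81 members of the upper follicle and sebaceous lists 244 were higher (3.32%) and 159 lower (2.16%). Leukocyte genes were higher in 11 of 11 tested in dermis, in 6 of 11 in epidermis and in 10 of 11 in follicle and gland. Class II machinery followed with 5, 1 and 4 of 6. In either direction 8.53, 1.39 and 5.48% of genes were called in dermis, in epidermis, and in follicle and gland. The contrast itself differed for 107 genes between epidermis and dermis (1.46%), being larger in epidermis for 20 (0.272%) and smaller for 87 (1.18%). It differed for 16 genes between follicle and gland and dermis (0.218%), 1 larger (0.0136%) and 15 smaller (0.204%). Between epidermis and follicle and gland it differed for 56 (0.762%), 11 larger (0.15%) and 45 smaller (0.612%).

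Mgl2 was higher in each layer. It was at 83.3, 172, 96.8 and 73.8 CPM in dermis members against 10.4 to 21.1 in the other dermis spots (2.91 ± 0.29), and at 73.1, 72.5, 28.6 and 24.8 against 5.90 to 21.7 in epidermis (1.92 ± 0.32). In follicle and gland it was at 80.8, 46.3, 74.7 and 59.9 against 10.6 to 22.9 (1.99 ± 0.30). None of the differences between layers was called for Mgl2, with adjusted p of 0.37 to 0.99.

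Cd207 in epidermis was at 15.9, 16.7, 28.6 and 19.8 CPM in members and 18.3, 17.9, 9.15 and 16.5 in the other spots, so that the groups overlapped (0.35 ± 0.41, adjusted p = 0.86). In dermis it was at 17.5, 9.85, 6.45 and 32.3 CPM against 3.27, 1.41, 1.73 and 4.42 (2.60 ± 0.64, adjusted p = 0.0034, lost without slice 4 at 0.13), and in follicle and gland at 25.5, 30.8, 33.9 and 46.6 against 4.52 to 7.62 (2.42 ± 0.43). These values rest on 19, 14 and 24 UMIs in members. Which cells held these UMIs was not tested, and the dendritic genes Xcr1 and Clec9a were too low to be tested. The differences of the epidermis contrast from dermis (-2.25 ± 0.74, adjusted p = 0.13) and from follicle and gland (-2.07 ± 0.56, adjusted p = 0.055) were not called.

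The member contrast of H2-DMb1 was smaller in epidermis: it was at 54.1, 66.9, 65.3 and 74.4 CPM against 34.7 to 41.4 (0.73 ± 0.23, adjusted p = 0.11), beside 2.22 ± 0.22 in dermis and 1.93 ± 0.22 in follicle and gland. The difference of epidermis from dermis was -1.49 ± 0.31 (adjusted p = 0.0019) and was lost without slice 1 (0.15), and that from follicle and gland was -1.19 ± 0.30 (0.027, lost without slice 1, 3 or 4, up to 0.36). For Ctss the epidermis contrast was 1.04 ± 0.29 (adjusted p = 0.051), and its difference from follicle and gland of -1.42 ± 0.36 (0.029) was lost without slice 2, 3 or 4 (up to 0.25). H2-DMa was higher in all 3, at 2.23 ± 0.28, 1.28 ± 0.28 and 1.93 ± 0.29 in dermis, epidermis, and follicle and gland. Its epidermis call was lost without slice 4 (adjusted p = 0.069). The score cutoff was the same for all layers of a slice. The median score over all spots was 1.34 in epidermis, 1.05 in dermis, 0.85 in sebaceous gland and 0.74 in upper follicle. Epidermis spots thus lay nearer to the cutoff, so a smaller contrast of class II genes there may stem partly from the rule. That part was not tested.

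Tap1, part of the peptide transporter, was at 140, 206, 176 and 166 CPM in follicle and gland members against 67.0 to 82.7 (1.19 ± 0.16), and at 0.05 ± 0.16 in epidermis. That difference, -1.14 ± 0.22 (adjusted p = 0.0010), stayed called whichever slice was left out.

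For the following genes no difference between these layers was called. Lyz2 gave 1.59 ± 0.15 in dermis, 1.46 ± 0.19 in epidermis and 2.00 ± 0.17 in follicle and gland, and each was called with any slice left out. C1qc gave 1.11 ± 0.24, 1.47 ± 0.31 and 0.89 ± 0.28, of which the first was lost without slice 4 (adjusted p = 0.073), the second without slice 1 or 3 (up to 0.084) and the last whichever slice was left out (up to 0.36). Ccl8 gave 0.90 ± 0.14, 0.98 ± 0.17 and 0.99 ± 0.15, of which the epidermis call was lost without slice 1 (0.074). Cxcl9 in follicle and gland members was at 25.5, 97.7, 81.5 and 93.2 CPM against 3.88 to 10.2 (3.41 ± 0.46). Its dermis contrast of 2.16 ± 0.71 (adjusted p = 0.045) was lost without slice 2 or 4 (up to 0.48), and its epidermis contrast was not called (1.58 ± 0.63, adjusted p = 0.31).

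Layer genes moved with membership as well. Krt10 of suprabasal keratinocytes is a gene of the epidermis list that assigned the spots, so its values within layers are a description. It was higher in dermis members (1.76) and follicle members (1.01) than in the other spots of these lists. In epidermis members it was not (-0.21), and the difference of epidermis from dermis was -1.98 ± 0.16. Ccl21a was higher in dermis members (0.97 ± 0.17) and at -0.27 ± 0.20 in follicle and gland, a difference of -1.24 ± 0.26 (adjusted p = 0.011, lost without slice 2 at 0.056). The part of such admixture in the immune contrasts was not tested.

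**Figure D5:**
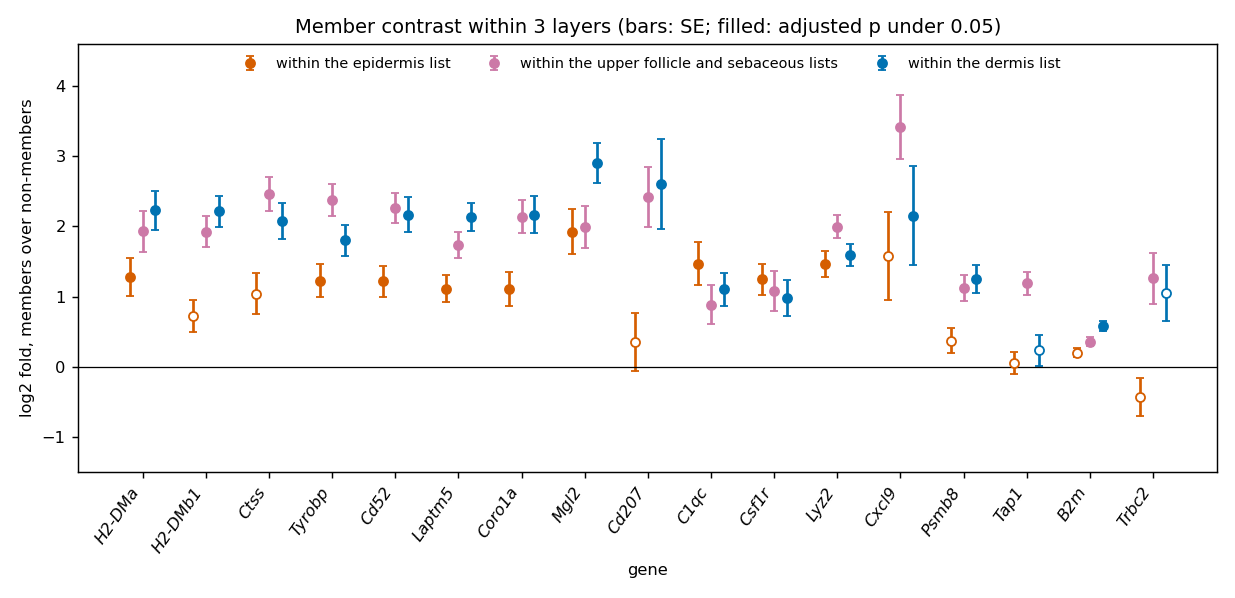
Log2 fold of members over the non-members of the same layer list for 17 genes, with SEs. Filled points were called at an adjusted p under 0.05; in epidermis (orange) H2-DMa, Mgl2 and Lyz2 are above 1 while Cd207 and Tap1 lie at 0.35 and 0.05.

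Set as stromal (dermis, adipose and muscle lists) minus epithelial layers, the member contrast was larger for 159 of 12567 genes (1.27%) and smaller for 298 (2.37%), together 3.64%. The stromal members were 72 dermis, 2 adipose and 1 muscle spots, whereas the stromal non-members were 246, 534 and 869. This contrast therefore also sets dermis against fat and muscle. Among non-members Ccl21a was at 190 CPM in dermis, 20.9 in adipose and 11.7 in muscle. The part of this unequal mix in the differences was not tested. The 5 highest differences were those of Lyg2 (2.50), Acoxl (2.36), Ero1lb (2.34), Hsd3b6 (2.22) and Krt18 (1.99), on 20 to 41 UMIs in members. The 5 lowest, Myo18b, Dusp27, Txlnb, Kcnc1 and Mybph, had 3 to 9 UMIs in members, and no fold is given. Among the genes named above the difference was called for Ccl21a (1.33 ± 0.22), Acta2 (0.69 ± 0.14), Retnla (-0.97 ± 0.22), Tap1 (-0.69 ± 0.21), Ifi27l2a (-0.70 ± 0.20) and Igtp (-1.63 ± 0.47).

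Shares of spots with at least 1 UMI were compared after each spot had been thinned to 5500 UMIs, which left out 27 members. Mgl2 was then found in 31.9 ± 8.34% of members, 6.82 ± 2.13% of matched spots, 3.00 ± 0.694% of all other spots and 2.27 ± 1.51% of muscle spots. Unthinned, these shares were 46.3, 11.8, 6.67 and 7.66%, with median UMIs of 9820.5, 9303, 12849 and 13993. The mean of muscle spots was thus below that of all other spots only after thinning, with overlapping spreads. Whether their thinned share is background was not tested. Cd207 was found in 10.8 ± 2.55% of members, 4.33 ± 2.85% of matched and 0.689 ± 0.778% of muscle spots (unthinned: 15.0, 6.95 and 0.965%). Cd3g was found in 13.6 ± 3.72%, 5.39 ± 1.93% and 0.475 ± 0.549% (unthinned: 17.8, 8.20 and 0.972%).

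Lyz2 and C1qa were also frequent outside the members, and muscle spots, which were above the other spots for both, give no background for them. Lyz2 was found in 74.0 ± 6.03% of members, 36.9 ± 6.83% of matched, 30.7 ± 2.87% of muscle and 25.0 ± 2.47% of all other spots (unthinned: 84.4, 49.5, 54.8 and 41.8%). C1qa was found in 44.9 ± 8.94%, 24.8 ± 6.24%, 18.6 ± 4.41% and 15.7 ± 1.23% (unthinned: 56.3, 35.5, 40.5 and 29.0%). Within the members, thinned, Mgl2 was found in 42.6 ± 16.7% of those in dermis, 32.1 ± 10.7% of those in follicle and gland and 25.1 ± 15.4% of those in epidermis, ranges that overlap. Cd207 was found in 6.73 ± 6.26%, 19.2 ± 3.98% and 8.30 ± 6.19%.

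Marker UMIs were counted together in single spots, without thinning, so that a count of 0 does not show a gene to be absent. Of the 256, 203 had a UMI of C1qa, C1qb or C1qc, 126 of Mgl2 or Cd209a, 86 of Cd3d, Cd3e or Cd3g, and 38 of Cd207. At least 1 UMI was present for none of these 4 kinds in 26 members, for 1 in 70, for 2 in 107, for 3 in 43 and for all 4 in 10. Among the other spots, which were deeper, the counts were 3058, 2511, 524, 58 and 4. Joint presence in a spot does not show that the genes were expressed in the same cell.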

How the data were processed

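The authors deposited UMI counts per gene and spot, per the file headers made with Space Ranger 2.0.1 for 32286 features, with mm10 named in the submitters' processing notes. The counts were not normalized and cover spots over tissue. A spot is a small region and no doublet caller was run. The members, marker lists and tests were chosen with earlier results of these data known. UMIs were summed per slice and spot class and tested with edgeR 4.0.16 in R 4.3.3 (filterByExpr, TMM, quasi-likelihood, Benjamini-Hochberg adjustment over all genes tested), and the fit was tested on simulated data. Both sums of a slice come from the same library, so the slice is a block, and their deviations from the class means correlated at 0.163, 0.076, 0.054 and 0.086 over 13774 genes. Genes named were the up to 4 with the largest changes per list, the first 2 of each cell type list, the 10 highest and lowest, and the 5 highest and lowest differences, with further list members chosen after their values were seen and with some genes not reported here. Totals per slice ranged from 19393026 to 26910422 UMIs. Shares and permutation tests used scipy 1.17.1. Coordinates are from GRCm38.p6 and promoters from RefSeq. Alternatives covered the member rule, the filter, the scaling, DESeq2 1.42.0, the block, each slice left out, the matching, neighbouring spots and position. The study's other experiments were not analysed here.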

Additional observations from a re-analysis of the deposited data

Results flagged for a closer look

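Of 226 groups of 4 slices examined, 18 held a slice whose gap to the nearest other, divided by the range of the group, exceeded Dixon's 95% critical value, and chance gives about 1 in 20. Among members the gap was 0.970 for B2m and 0.832 for H2-DMb1, both highest in slice 4 at 1888 and 118 CPM, 0.836 for Ctss and 0.926 for H2-D1, both lowest in slice 3 at 56.0 and 738 CPM, and 0.860 for Laptm5, highest in slice 2 at 194 CPM. It was 0.895 for Fscn1, lowest in slice 4, and 1 for Ly75, which had UMIs in slice 3 alone. Slice 1 stood apart among members for Retnla (0.860, 118 CPM), Mycn (0.911), S100a9 (0.878) and Tyrp1 (0.884), being the highest in each. Among the other spots slice 4 was highest for Ccl2 (0.949), Ccr2 (0.912), Ciita (0.853) and H2-DMb1 (0.898), and slice 1 for Retnla (0.903, 56.5 CPM). Slice 1 also stood apart in the share of other spots in the sebaceous gland list (0.938, lowest at 4.49%) and in their median UMIs (0.869).

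The contrast of members differed between layers for 457 genes when stromal layers were set against epithelial ones, for 107 when epidermis was set against dermis, for 16 when follicle and gland were set against dermis, and for 56 when epidermis was set against follicle and gland, each at an edgeR adjusted p under 0.05. For the 457, stromal members were mostly dermis spots and stromal non-members mostly muscle and adipose spots. The part of this unequal mix was not tested.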

How the results depend on the processing

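Against all other spots, counts of genes called stayed within 1.5 times under every alternative except neighbouring spots as the comparison (469 higher and 350 lower). Without the replicate block they were 2668 and 2585. Against matched spots there were 226 higher and 50 lower without the replicate block, 215 and 114 with DESeq2, and 264 and 181 with 1 matched spot a member. With a slice left out they ranged from 268 to 333 and from 172 to 235. For stromal minus epithelial layers there were 39 and 182 without the block, 42 higher with a layer lead of at least 0.5 z, and 60 to 104 higher with a slice left out. Within dermis, epidermis, and follicle and gland, 363, 28 and 213 genes were called without the block, and 380 to 530, 56 to 94 and 261 to 337 with a slice left out. Differences of epidermis from dermis, follicle and gland from dermis, and epidermis from follicle and gland gave 47, 0 and 22 without the block, and 54 to 77, 7 to 21 and 23 to 62 with a slice left out. With the top 2% of spots as members, 28.2% lay in epidermis, 32.4% in dermis and 25.8% in upper follicle, and with the top 8%, 21.0% in dermis. Reversed log2 folds were those of Egr2 (-0.29) and Epcam (-0.38) against neighbouring spots, of Fscn1 with no filter (-0.048), the top 8% (-0.068), a pooled score (-0.079) or neighbouring spots (-0.33), and of Mmrn1 against matched spots with the top 2% (-0.057). With a slice left out, Fscn1 ranged from -0.12 to 0.19. The causes were not tested. Genes under about 20 UMIs in members are limited by depth.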
